A study of Mus musculus with 17 samples.

Results

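Immune cells reach mammary tumours as macrophages, T cells and B cells, and tumour cells show peptides to them on MHC molecules. Macrophages take up particles through Fc receptors and complement, cut the contents with lysosomal enzymes and load peptides on MHC class II, whose chains travel with the invariant chain Cd74. MHC class I is made by most cells, tumour cells included, and pairs a heavy chain with B2m and with peptides that the immunoproteasome cuts and the Tap transporter brings in. Signal for leukocyte genes in RNA from microdissected tumour cells therefore has to be read gene by gene, since class I genes can come from the tumour cells themselves and genes such as Ptprc are made by leukocytes.

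The genes described here are 39 genes of immune cells and antigen presentation, of 28786 genes on the arrays. They were chosen by name and include a pan-leukocyte gene (Ptprc), 5 T and B cell genes, 12 myeloid genes, 6 genes of the MHC class II pathway, 7 of the MHC class I pathway, 6 chemokines and cytokines and the enzyme Irg1. All 39 have a probe, 66 probes in all, and 19 have several, of which the probe brightest over both colours stood for the gene. The RNA came from 17 mammary tumours of FVB mice that carry p75-CUX1 (9 tumours) or p110-CUX1 (8 tumours), isoforms of a transcription factor expressed under the mouse mammary tumour virus (MMTV) regulatory sequences. No tissue without a transgene is among the samples. By histology there were 9 solid carcinomas, 4 adenosquamous carcinomas, 2 adenomyoepitheliomas, 1 adenoma and 1 adenocarcinoma. Each tumour is from its own mouse and is named by transgene and mouse number. Stained epithelial cells were cut from frozen sections with an infrared laser, their RNA was amplified in 2 rounds, and it was hybridized with 1 amplified universal mouse reference RNA in the other dye, with the dyes swapped between arrays. Another grouping, into 5 high-Wnt, 5 medium-Wnt and 7 low-Wnt tumours, is that drawn in the study's own heatmap from its Wnt genes on the same arrays. It used none of the 39 genes. Values are log2 ratios of tumour over reference, so that 0 is the level in the reference and not absence, and levels of different genes are not comparable.

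The arrays differed in how much tumour RNA they registered. A gene is called measured in a tumour where each of the tumour's arrays had the tumour colour well above background. This held for 18.3% of probes in p110-374 and for up to 61.9% in p75-129. The 95th percentile of the reference signal was 12 times that of the tumour signal in p110-98, and in p110-374 it was 11.1 times, in p110-225 8.72 times and in p110-121 4.09 times, with under 3 times elsewhere. Of the 39 genes, 13 (33.3%) were measured in all 17 tumours, against 4720 genes (16.4%) of the whole array. The 13 were Csf1r, Itgax, Cd14, Tyrobp, Fcer1g, Lyz2, H2-Ab1, Ctss, H2-K1, H2-D1, B2m, Psmb8 and Psmb9, all myeloid or antigen presentation genes. None of the 5 T and B cell genes was measured in all tumours. Cxcl2 was measured in none, Tap1 in 1, Cd79a in 2, and Itgam and C1qa in 3 each, so their values are mostly limits.

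**Figure D1:**
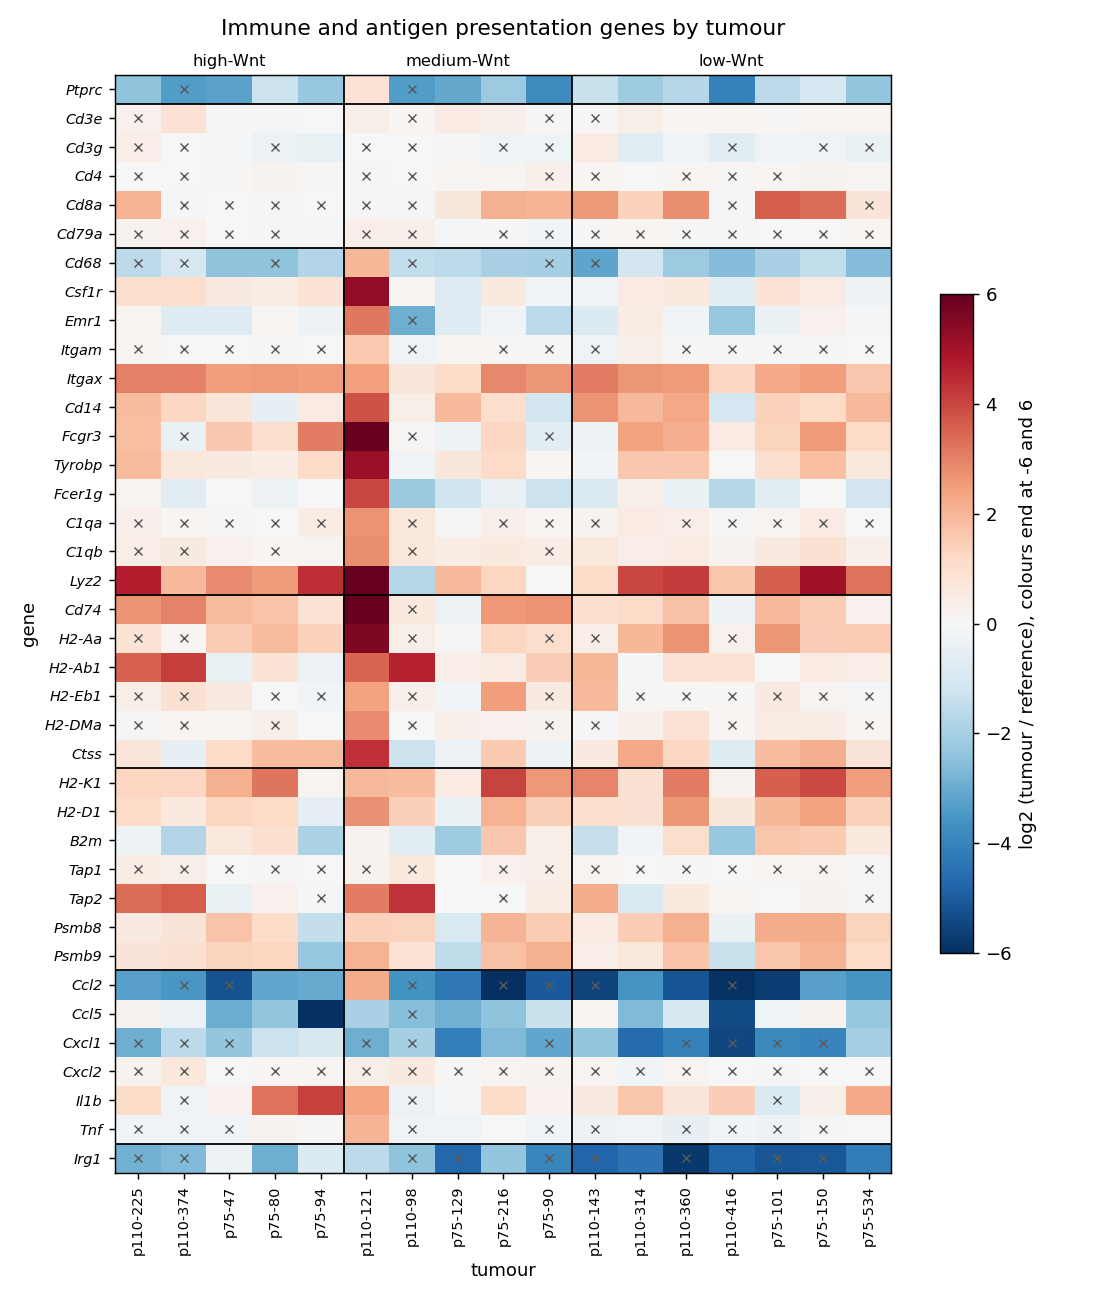
Log2 ratio of tumour over reference of 38 of the 39 genes (rows, by role) in the 17 tumours (columns, by Wnt cluster). Red is above the reference and blue below it, colours end at -6 and 6, and a cross marks a gene not measured above background in that tumour. The column of p110-121 is red for myeloid and MHC class II genes, reaching 7.29 for Lyz2.

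The library labelled p110-121 is a solid carcinoma by its sample label but is not in the list of solid carcinomas in the study's own legend, and the study's heatmap has it in the medium-Wnt cluster. It stood apart from the others and went against its label as epithelial cells. Of 8 markers of luminal epithelium, 2 were measured there, Krt8 at -4.24 and Krt18 at -4.82, where the other 16 tumours lay between 0.18 and 2.91 for Krt8 and between -0.04 and 3.20 for Krt18. Elf5, a transcription factor of the mammary luminal lineage, was not measured and stood at 0.07, against 5.74 to 9.45 in the others. The mean of the 8 luminal markers was -1.62 there and between 0.86 and 3.67 in the other tumours, of which each had 5 to 8 of the 8 measured. The 10 defining macrophage markers were all measured there and all at their highest. Their mean was 4.49, against a range of -0.19 to 1.28 in the other tumours. Of these, Csf1r, Emr1, C1qa, C1qb and Cd68 are also among the myeloid genes described below, so the list is not independent of them. The markers outside the myeloid genes, C1qc, Fcgr1, Mrc1, Mpeg1 and Aif1, were at 8.58, 4.89, 5.89, 3.29 and 6.36 in p110-121. The other tumours reached 6.72, 1.45, 3.67, 0.89 and 4.11. For basal and myoepithelial markers the mean of p110-121 was 0.24, above p110-416 (-0.31) and p110-314 (-0.09) only. The remaining tumours lay between 2.36 and 4.62. Of the 8 basal markers 3 were measured in p110-121, against 6 to 8 in the others. Most results that rest on p110-121 are therefore given with and without it.

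Of the 39 genes, 21 (53.8%) had their highest value of the 17 tumours in p110-121, against 2399 of all genes (8.33%). They included 11 of the 12 myeloid genes, 4 of 6 MHC class II pathway genes, 2 of 6 chemokines and cytokines, Ptprc, 1 of 5 T and B cell genes and 1 of 7 class I genes. With the tumour in Cy3 the count was 19, and with the tumour in Cy5 it was 22. In a bulk sample such as these, fewer cells of a type and less RNA of each cell cannot be told apart.

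Among receptors and signalling subunits of myeloid cells, Csf1r, the receptor of the macrophage growth factor CSF1, was at 5.32 in p110-121 and between -0.78 and 1.08 in the other 16 tumours, so that it stood 18.9-fold above the next. Fcgr3, an Fc receptor for IgG, was at 6.74 there, and the others reached 3.08. Fcer1g, the signalling chain shared by Fc receptors, was at 4.02 against at most 0.35, a gap of 12.7-fold. The gaps of Csf1r, Fcgr3 and Fcer1g to the next tumour were 4.24, 3.66 and 3.67 on the log2 scale. Tyrobp, the adaptor of several activating myeloid receptors, was at 5.19 with a next value of 1.92. Cd14, a co-receptor for bacterial lipopolysaccharide, was at 3.81, closer to the next value of 2.68. Emr1, the gene of the F4/80 antigen, was at 3.15, with the others between -2.92 and 0.46. The integrin Itgam was at 1.58 where the others were measured in only 2 tumours and reached 0.36. Itgax, the integrin CD11c of dendritic cells and some macrophages, was the exception of the group. It was at 2.47 in p110-121, inside a range of 0.74 to 3.06, and was measured in all tumours.

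Lysosomal and complement genes followed the receptors. Lyz2, the lysozyme of macrophages and neutrophils, was at 7.29 in p110-121, and it was also the myeloid gene that varied most among the other tumours, from -1.73 in p110-98 to 5.10 in p75-150. Cd68, a lysosomal glycoprotein, was below the reference in the other 16 tumours, at -3.16 to -1.01, and above it in p110-121, at 1.98. C1qa and C1qb, chains of complement C1q, were at 2.71 and 2.77, with next values of 0.64 and 0.90. Both arrays of p110-121 gave the pattern, for example in Lyz2, Cd74 and Csf1r: Lyz2 was at 5.98 with the tumour in Cy3 and 8.60 in Cy5, Cd74 at 6.09 and 6.99, and Csf1r at 5.72 and 4.92.

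**Figure D2:**
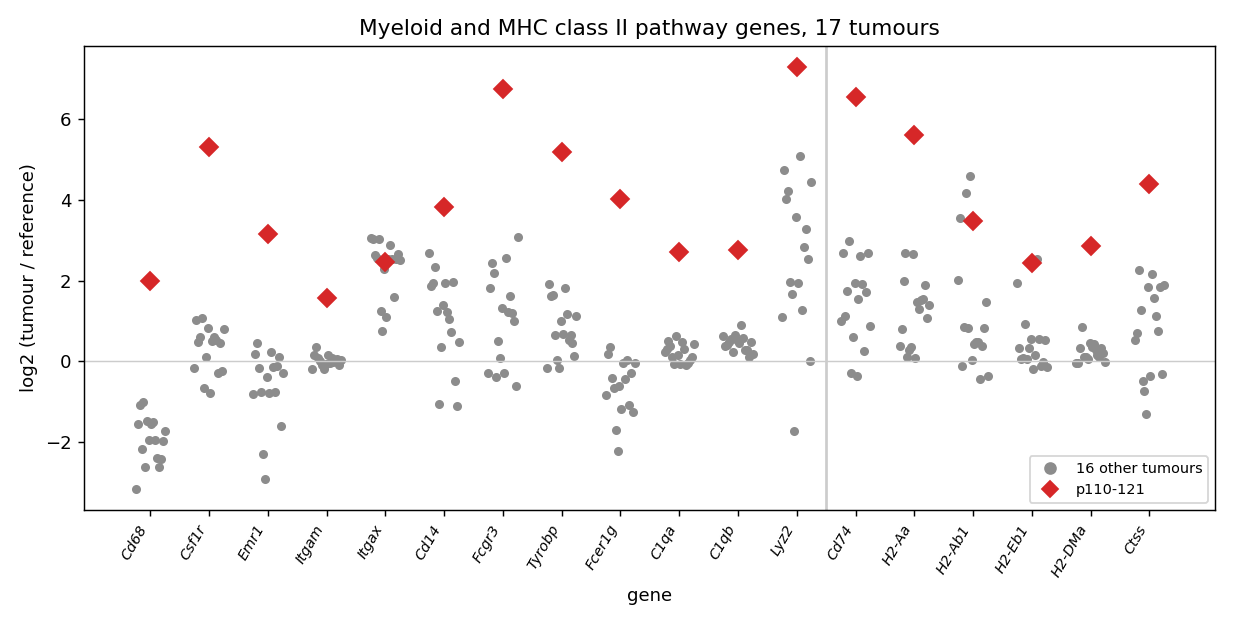
Log2 ratio of tumour over reference of the 12 myeloid genes (left of the grey line) and the 6 MHC class II pathway genes (right) in the 17 tumours. The red diamond is p110-121 and each grey dot is 1 of the other 16 tumours. The diamond lies above all dots for 15 of the 18 genes, and among the dots for Itgax, H2-Ab1 and H2-Eb1.

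The MHC class II pathway was highest in the same library, with 2 exceptions. Cd74 was at 6.54 in p110-121 and between -0.37 (p75-129) and 2.97 (p110-374) elsewhere. H2-Aa, the alpha chain of I-A, was at 5.61 there and between 0.08 and 2.69 elsewhere, and was measured in 11 tumours. Ctss, the protease that trims the invariant chain, was at 4.40 against at most 2.25, and H2-DMa, which helps load peptides, at 2.86 against at most 0.85. H2-Eb1, the beta chain of I-E, was at 2.43 in p110-121, 2.53 in p75-216 and 1.94 in p110-143, and at 0.92 or lower in the other 14. H2-Ab1, the beta chain that pairs with H2-Aa, was by its brightest probe at 3.48 in p110-121, below 4.60 in p110-98, 4.16 in p110-374 and 3.54 in p110-225. Its other 3 probes were all highest in p110-121, at 7.34, 5.08 and 3.48, so that the exception rests on 1 probe. Beyond the members, 6 of 12 other genes of the class II pathway were highest in p110-121, with a mean of 1.24 against -0.32 to 0.21.

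The promoters of the class II chains are shown because genes of this pathway carry paired X and Y boxes, which are read by the RFX and NF-Y complexes and recruit the class II transactivator. RefSeq's promoter table (GRCm38.p6) holds 27 of the 39 genes, and the 250 bases before each start site were searched on both strands. Capitals mark the X box CTNGCAAC and the Y box CTGATTGG, in that order.
H2-Aa (chr17:34287852-34287922, minus strand): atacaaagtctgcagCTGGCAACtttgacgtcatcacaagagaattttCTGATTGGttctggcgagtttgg
H2-Eb1 (chr17:34305758-34305827, plus strand): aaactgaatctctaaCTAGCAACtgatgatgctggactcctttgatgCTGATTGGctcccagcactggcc
The X box letters were found in 3.30% of 27025 promoters and in 3 of the 27, H2-Aa, H2-Eb1 and H2-D1. The Y box letters were found in 4.43% of promoters and in 5 of the 27, those 3 with Tap1 and Psmb9. A match of letters is a description of the sequence, and the motifs were chosen after the sequences were seen.

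Chemokines, cytokines and lymphocyte genes in p110-121 were mixed. Ccl2, which draws monocytes, was at 2.23 there and between -6.25 and -3.05 in the other 16 tumours, the widest gap of all 39 genes at 38.9-fold. Tnf was at 2.02, with the others at 0.20 or lower. Il1b was at 2.39 there, below p75-94 at 4.12 and p75-80 at 3.26. Ccl5, a chemokine made by T cells and others, was at -1.92, within the range of the other tumours (-6.25 to 0.23). Ptprc, the leukocyte antigen CD45, was at 0.88 in p110-121 and between -4.06 and -1.04 elsewhere, so that p110-121 was the 1 tumour above the reference.

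T and B cell genes were not raised with the myeloid genes in p110-121. Cd3e, a chain of the T cell receptor complex, was at 0.37 there, below 0.86 in p110-374. Cd8a was at -0.06, and Cd3g, Cd4, Cd8a and Cd79a were not measured. Of lists without members, 13 of 15 other pan-leukocyte genes and 17 of 24 other macrophage and dendritic cell genes were highest there, but 2 of 20 other T and NK cell genes, 2 of 15 neutrophil and mast cell genes and 0 of 10 other B and plasma cell genes. The means of the macrophage and dendritic list were 3.64 in p110-121 and 0.37 to 1.54 in the others, and those of the T and NK list were 0.86 and -0.49 to 1.20. Another library, p110-225, was the highest for B cell and neutrophil lists. Its mean of the B and plasma cell list was 0.76, against at most -0.85 in the others, with 6 of the 10 genes highest there, and its mean of the neutrophil and mast cell list was 2.54, against at most 1.74.

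Cd8a, the CD8 chain of cytotoxic T cells, was the T cell gene that varied among the other tumours. The p75 tumours p75-101, p75-150, p75-216 and p75-90 had 3.64, 3.37, 2.15 and 2.05, and the p110 tumours p110-360, p110-143, p110-225 and p110-314 had 2.81, 2.59, 2.11 and 1.40. In the other 9 it was at 0.76 or lower. Cd3e, by contrast, ranged from -0.06 to 0.86, Cd3g from -0.67 to 0.47 and Cd4 from -0.04 to 0.29. In p75-101, where Cd8a was highest, Cd3e was at 0.06 and Cd3g at -0.21. A further Cd8a probe reached 2.99, in p75-150, and another 0.88. The highest Cd3e was in p110-374, where Cd8a was at -0.13, and the highest Cd3g in p110-143, where Cd8a was at 2.59. The mean of 6 adipocyte markers was 4.54 to 6.07 in p75-101, p75-150, p110-143, p110-225 and p110-360, which are 5 of the 6 tumours highest in Cd8a, and at most 2.19 in the other 12. The T and NK list was highest in p110-143 (1.20), followed by p75-150 and p110-121 (0.86 each), p110-360 (0.80), p75-90 (0.77) and p75-101 (0.55). The part of these cells in the Cd8a values was not tested.

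MHC class I pathway genes had a different order of tumours. The 3 lowest tumours were p75-94, p75-129 and p110-416 for H2-K1, B2m, Psmb8 and Psmb9. These 3 tumours were picked out by the values of these genes, which are therefore given as a description. These tumours include an adenosquamous and 2 solid carcinomas, from both transgenes and all 3 Wnt clusters. Psmb9, an inducible catalytic subunit of the immunoproteasome, was at -2.29, -1.53 and -1.33 in them, in that order, and between 0.38 and 2.14 in the other 14. Psmb8, its partner subunit, was at -1.45, -0.92 and -0.42, against 0.51 to 2.24.

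The heavy chain H2-K1 was at 0.15, 0.47 and 0.22 in the 3 tumours, and the next was p110-314 at 0.90. B2m, the light chain of class I, was at -1.88, -2.12 and -2.27, only a little below p110-374 at -1.77. Tap1 was measured in p75-129 alone, and its values carry no order. For the heavy chain H2-D1 the lowest were p75-94 at -0.59 and p75-129 at -0.38, followed by p110-374 at 0.57 and p110-416 at 0.66, so that p110-416 was not among the 3 lowest. The mean of 13 other class I pathway genes was lowest in the same 3, at -1.03, -0.91 and -0.69, with p110-314 next at -0.28. The chemokine Ccl5 was lowest in p75-94 at -6.25 and p110-416 at -5.37, but at -2.88 in p75-129. The 3 tumours were among the 4 with the most probes measured, at 47.9%, 61.9% and 44.3% of probes, and p110-314 was the other at 51.8%. The part of signal strength in the pattern was not tested. In p110-314, Psmb9 was at 0.65 and Psmb8 at 1.54.

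Promoter stretches of class I genes are shown for their NF-kB letters (GGNNTTNCC) and interferon-stimulated element letters (TTTCNNTT), in capitals on either strand.
H2-K1 (chr17:34000415-34000472, minus strand): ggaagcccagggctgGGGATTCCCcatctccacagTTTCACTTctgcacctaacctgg
H2-D1 (chr17:35262909-35262966, plus strand): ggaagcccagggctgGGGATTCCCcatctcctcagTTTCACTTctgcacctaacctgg
B2m (chr2:122147535-122147584, plus strand): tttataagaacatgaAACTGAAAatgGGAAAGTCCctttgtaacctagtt
Both are common: the first was found in 15.3% of promoters and 12 of the 27 genes, the second in 23.9% and 11 of the 27. H2-K1 and H2-D1 have the 2 motifs in the same order on the strand shown. In B2m both are on the opposite strand, and read on that strand their order is the same.

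Pairs of genes of 1 complex, pathway or cell type were compared across the 17 tumours, 8 pairs in all, with permutation p-values adjusted over the 8. Psmb8 and Psmb9 varied together (Pearson's r = 0.94, adjusted permutation p = 4e-05; Spearman's rho = 0.81, adjusted permutation p = 0.00128). This held without p75-94 and p75-129, the tumours farthest from the median (r = 0.84), within p75 tumours (r = 0.97, adjusted exact permutation p = 0.00915) and within p110 tumours (r = 0.83, adjusted exact permutation p = 0.0344). Tyrobp and Fcer1g were related as well (r = 0.93, adjusted permutation p = 4e-05, rho = 0.74 with an adjusted permutation p = 0.00424), and r was 0.74 without p110-121 and p110-225. Within p110 tumours, which include p110-121, r was 0.97 (adjusted exact permutation p = 0.00575). Within p75 tumours r was 0.54 (adjusted exact permutation p = 0.28), which did not pass. The value within p110 tumours was not computed without p110-121, so the transgenes cannot be compared in this relation. The unadjusted p of the pairs Psmb8 with Psmb9 and Tyrobp with Fcer1g, 1e-05, was the smallest that 100000 permutations can give.

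H2-Aa and Cd74 had r = 0.71 (adjusted permutation p = 0.0216) but rho = 0.31 (adjusted permutation p = 0.26). Without p110-121 r was 0.25 (adjusted permutation p = 0.356) and rho 0.17, so the relation did not hold without that library, and both genes were measured in 11 tumours. Within p75 and p110 tumours its r was 0.45 and 0.77, neither of which passed (adjusted exact permutation p = 0.304 and 0.0869). Without p110-121 the relation of Psmb8 and Psmb9 had r = 0.95 (adjusted permutation p = 8e-05), and that of Tyrobp and Fcer1g r = 0.76 (adjusted permutation p = 0.00248). H2-Aa and H2-Ab1, whose products form 1 molecule, did not pass by their brightest probes (r = -0.06, rho = -0.35, adjusted permutation p = 0.838 and 0.221), and without p110-121 r was -0.57 (adjusted permutation p = 0.0573). With the mean of all probes of each gene r was 0.86 (adjusted permutation p = 0.00398), and 0.47 without p110-121 (adjusted permutation p = 0.103). Il1b and Irg1 had r = 0.36 and rho = 0.23 (adjusted permutation p = 0.183 and 0.384), with both measured in 8 tumours. The other 3 pairs, C1qa with C1qb, Cxcl1 with Cxcl2 and Tap1 with Psmb9, had both genes measured in 3, 0 and 1 tumours, so their correlations are mostly of values near background. Their r was 0.94, 0.50 and 0.42, given with no test.

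**Figure D3:**
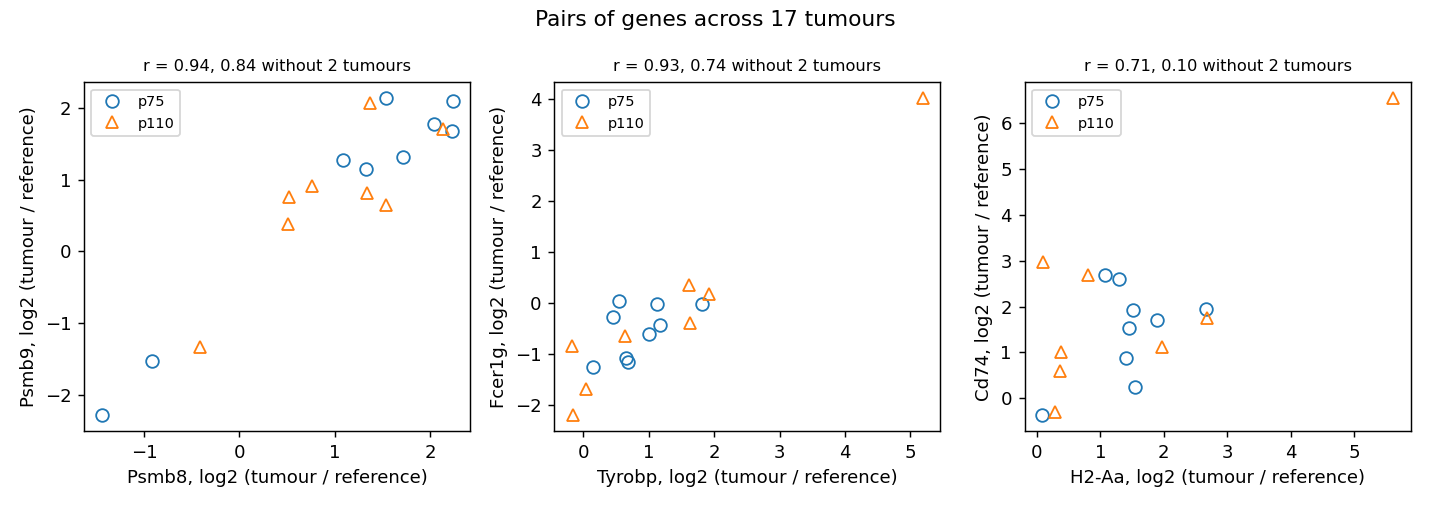
Log2 ratios of tumour over reference of 3 pairs of genes, Psmb8 and Psmb9, Tyrobp and Fcer1g, and H2-Aa and Cd74, with 1 point per tumour (circles p75, triangles p110). The point at the upper right of the panels of Tyrobp and of H2-Aa is p110-121. Without the 2 tumours farthest from the median on the x axis, r was 0.84, 0.74 and 0.10, and H2-Aa was measured in 11 of the 17 tumours.

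Adenosquamous carcinomas are p75 tumours without exception here, so they were compared with solid carcinomas in limma with the transgene as a covariate. None of the 28786 genes passed an adjusted p under 0.05 (0%), and so none of the 39, while 848 genes (2.95%) and 1 of the 39 had an unadjusted p under 0.05. The 39 genes had a median difference of -0.02, against 0.00 over all genes, and 18 were above 0. Without p110-121 the median was 0.03, 20 were above 0, and 2 had an unadjusted p under 0.05, Irg1 and Csf1r. Csf1r differed by 0.96 without that library (SE 0.38, limma adjusted p = 1) and by 0.85 with it (SE 1.03, limma adjusted p = 1).

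The gene with an unadjusted p under 0.05 over all 17 tumours was Irg1, the macrophage enzyme (also Acod1) that makes itaconate. It was at -0.30, -0.82, -2.91 and -5.13 in the adenosquamous p75-47, p75-94, p75-80 and p75-101, and from -5.81 to -1.59 in the 9 solid carcinomas, with a median of -4.73. The groups overlapped, since p75-101 was below the median of the solid carcinomas. Irg1 was measured in 3 of the 4 adenosquamous carcinomas, not in p75-101, and in 4 of the 9 solid carcinomas. The other values are limits. The difference in limma was 2.47 (SE 1.09, 95% interval 0.10 to 4.84, adjusted p = 1), and within p75 tumours, 4 against 3, the exact two-sided permutation p was 0.171 where the smallest possible is 0.0286.

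Cxcl1, a chemokine that draws neutrophils, was at -2.10 ± 1.30 (SD, n = 4) in adenosquamous and -3.60 ± 1.13 (SD, n = 9) in solid carcinomas, a difference of 1.51 in limma (SE 0.85, adjusted p = 1). Itgax differed by 0.67 (SE 0.38, adjusted p = 1 in limma), with group means of 2.47 and 2.25. Cd14 differed by -0.89 (SE 0.87, adjusted p = 1 in limma), with means of 0.53 and 1.85. For all 3 the values of the groups overlapped. Cxcl1 was measured in 2 of the 4 adenosquamous and 4 of the 9 solid carcinomas, so many of its values are limits. Ptprc was at -2.09 ± 0.85 (SD, n = 4) in adenosquamous and -1.92 ± 1.39 (SD, n = 9) in solid carcinomas, Cd74 at 1.61 ± 0.50 (SD, n = 4) and 1.58 ± 2.11 (SD, n = 9), and H2-Aa at 1.87 ± 0.57 (SD, n = 4) and 1.65 ± 1.72 (SD, n = 9). Without p110-121 the means of the solid carcinomas were -2.27 for Ptprc, which turned the order of its group means, 0.96 for Cd74 and 1.15 for H2-Aa (n = 8), and none of the 3 genes passed in limma (adjusted p = 1).

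In the comparison of p75 with p110 tumours none of the 39 genes passed (limma, smallest adjusted p = 0.119), while 145 of all genes did (0.504%), 59 higher and 86 lower in p75. At an unadjusted p under 0.05 there were 4 of the 39 (10.3%), against 3968 of all genes (13.8%), a share near that of the array. Without p110-121 there were 5 of the 39 and none passed (limma, smallest adjusted p = 0.187). Tnf was added to the 4, with a difference of -0.10 with that library and 0.19 without it. Transgene and scan year cannot be told apart, since the arrays of the p75 tumours share 1 scan year and those of the p110 tumours the other. All 12 myeloid genes were lower in p75 tumours by their means, with a median difference of -0.39, but without p110-121 it was 7 of 12 and the median was -0.02. Over the 39 genes, 29 were below 0 with that library and 17 without it.

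Tap2, a subunit of the peptide transporter with 1 probe, was at 4.35 in p110-98, 3.63 in p110-374, 3.36 in p110-225, 3.05 in p110-121 and 2.21 in p110-143, and at 0.58 or lower in the other 3 p110 tumours. In p75 tumours it ranged from -0.46 to 0.43. The difference was -2.02 (SE 0.61, 95% interval -3.30 to -0.73, limma adjusted p = 0.137, permutation p = 0.00823 in an exact two-sided test), and the groups overlapped. Without p110-121 it was -1.87 (SE 0.64, limma adjusted p = 0.217). H2-Ab1 had by its brightest probe the same 5 tumours highest, p110-98 at 4.60, p110-374 at 4.16, p110-225 at 3.54, p110-121 at 3.48 and p110-143 at 2.01, and lay between -0.43 and 1.46 in p75 tumours. Its difference was -2.06 (SE 0.60, 95% interval -3.32 to -0.79, limma adjusted p = 0.125, exact permutation p = 0.0051), while its other 3 probes gave 0.25, -0.21 and -0.22. Without p110-121 the brightest probe gave -1.91 (SE 0.62, limma adjusted p = 0.204). The 4 tumours with the highest Tap2 are those with the strongest reference signal over the tumour signal, and its part in these values was not tested.

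In the tumour colour alone both genes passed and the transgenes did not overlap. The log2 signal of Tap2 was 12.63 to 16.77 in p110 and 6.68 to 10.60 in p75 tumours, a difference of -7.38 (limma adjusted p = 7.88e-06), and H2-Ab1 differed by -4.67 (limma adjusted p = 0.00211). The reference colour, which holds the same RNA on every array, was also higher on the arrays of p110 tumours. It was 13.42 to 15.15 there and 6.82 to 12.00 on those of p75 tumours for Tap2, with medians of 14.76 and 7.61, and the medians for H2-Ab1 were 13.81 and 11.23.

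Cd79a, a chain of the B cell receptor complex, differed by -0.20 (SE 0.06, limma adjusted p = 0.119, exact permutation p = 0.00197), but it was measured in 2 p75 tumours and no p110 tumour. Without p110-121 its difference was -0.17 (SE 0.05, limma adjusted p = 0.187). Cd4 differed by 0.09 (SE 0.04, limma adjusted p = 0.323, exact permutation p = 0.0149) and was measured in 7 p75 tumours and 1 p110 tumour. Of the other lists, Cd37, a leukocyte tetraspanin, passed and was lower in p75 tumours, with a difference of -0.46 (SE 0.09, limma adjusted p = 0.0422). It was measured in 3 of 9 p75 and 4 of 8 p110 tumours, and without p110-121, where it was at 1.05, the difference was -0.38 (SE 0.06, limma adjusted p = 0.0229). The mean of the pan-leukocyte list that holds it was 1.79 in p110-121 and 0.11 in p110-225, and at most -0.36 in the other tumours. Ptprc was at -2.32 ± 0.93 (SD, n = 9) in p75 and -2.19 ± 1.55 (SD, n = 8) in p110 tumours, Cd74 at 1.46 ± 1.03 (SD, n = 9) and 2.05 ± 2.11 (SD, n = 8), H2-Aa at 1.44 ± 0.68 (SD, n = 9) and 1.53 ± 1.89 (SD, n = 8), and Irg1 at -3.27 ± 1.81 (SD, n = 9) and -3.67 ± 1.47 (SD, n = 8). Without p110-121 the p110 means were -2.63 for Ptprc, 1.41 for Cd74, 0.94 for H2-Aa and -3.97 for Irg1 (n = 7), so that the first 3 turned from lower to higher in p75 tumours, with limma adjusted p from 0.656 (H2-Aa) to 0.978 (Cd74).

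Between high-Wnt and low-Wnt tumours 1 of the 39 genes passed, Irg1, against 67 of all genes (0.233%), 47 higher and 20 lower in high-Wnt tumours. The high-Wnt tumours p75-47, p75-80 and p75-94 are adenosquamous carcinomas, p110-374 is an adenomyoepithelioma and p110-225 a solid carcinoma. The low-Wnt tumours are solid carcinomas except for the adenosquamous p75-101. Histology was not in this fit, so differences by cluster and by histology can largely not be told apart. At an unadjusted p under 0.05 there were 3 of the 39 (7.69%) and 3468 of all genes (12%). The groups did not overlap for 1 of the 39, again Irg1, and for 486 of 28661 genes (1.7%). The median difference of the 39 was 0.04, against 0.02 over all genes. Myeloid, T cell and antigen presentation genes as groups had median differences between -0.62 (class I) and 0.05 (T and B cell), and none of the 18 myeloid and class II genes had an unadjusted p under 0.05.

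Irg1 was below the reference in every tumour. Among high-Wnt tumours p75-47 was at -0.30, p75-94 at -0.82, p110-374 at -2.66, p110-225 at -2.89 and p75-80 at -2.91. Among low-Wnt tumours p75-534 was at -4.22, p110-314 at -4.44, p110-143 at -4.76, p110-416 at -4.81, p75-150 at -5.07, p75-101 at -5.13 and p110-360 at -5.81. Every high-Wnt tumour was above every low-Wnt tumour. The 5 medium-Wnt tumours lay in between and across, from -4.73 in p75-129 to -1.59 in p110-121.

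High-Wnt tumours had a mean Irg1 of -1.91 ± 1.26 (SD, n = 5). The medium-Wnt mean was -2.99 ± 1.29 (SD, n = 5) and the low-Wnt mean -4.89 ± 0.52 (SD, n = 7). The difference of high over low was 2.98 (SE 0.57, 95% interval 1.76 to 4.20, limma adjusted p = 0.0491). The exact two-sided permutation p was 0.00126, the smallest that 5 against 7 tumours can give. A second Irg1 probe, which overlaps the first on mm7 (chr14:97488905-97488965 and chr14:97488885-97488945), gave 2.75. Irg1 was measured in 3 of 5 high-Wnt and 3 of 7 low-Wnt tumours, so that values in both groups are limits, among them p110-225 and p110-374 of the high-Wnt group. In the tumour colour alone the log2 signal of Irg1 was 7.72 in p110-374, little above 7.65 in p110-314 and 7.61 in p75-534 of the low-Wnt group, and 8.30 to 10.52 in the other 4 high-Wnt tumours.

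The call of Irg1 lies at the threshold. Over 18 other settings the difference stayed above 0, at 1.94 to 3.92, and the limma adjusted p was 0.032 to 0.682 and passed in 5 of them. With 1 tumour left out it was 2.57 to 3.23 and passed without p75-129, p75-216, p75-534 or p110-121, where the adjusted p was 0.0352 to 0.0471, but not without any of the other 13 tumours, with up to 0.114 without p110-360. Within p75 tumours the difference was 3.47 and within p110 tumours 2.18. The interaction with the transgene was 1.28 (adjusted p = 0.666 in limma). The 12 myeloid genes beside it had differences from -0.73 (Cd14) to 0.60 (Csf1r), 8 of them above 0, with a median of 0.03.

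**Figure D4:**
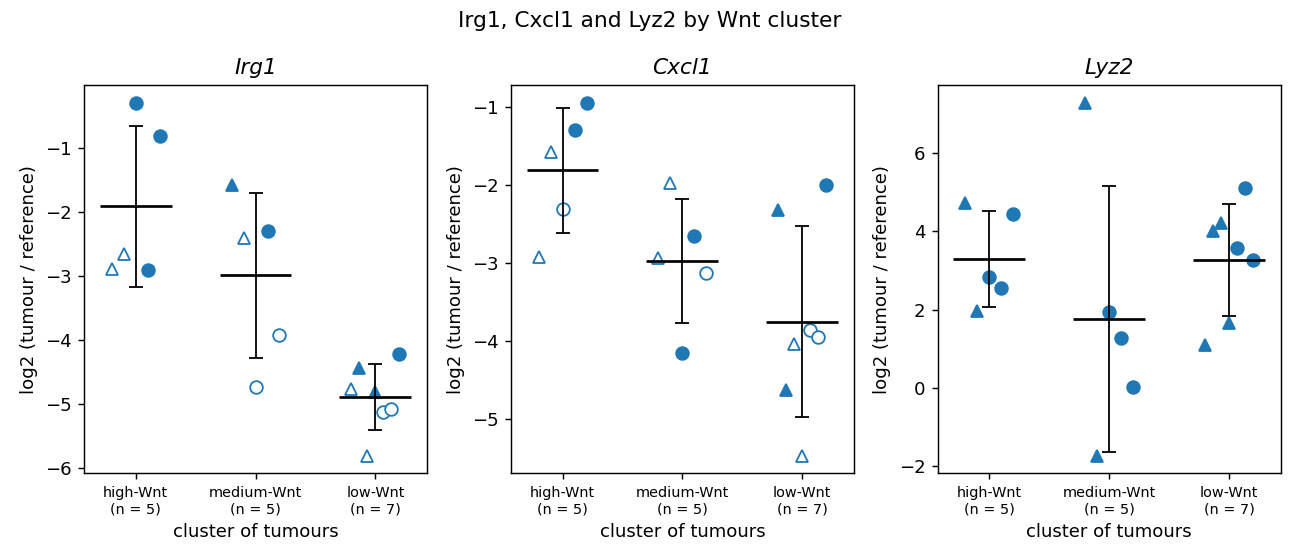
Log2 ratio of tumour over reference of Irg1, Cxcl1 and Lyz2 by Wnt cluster, 1 point per tumour (circles p75, triangles p110, filled where measured above background). Bars are means and whiskers SD. Irg1 does not overlap between the 5 high-Wnt and the 7 low-Wnt tumours, Cxcl1 overlaps, and Lyz2 has its highest point, p110-121 at 7.29, in the medium-Wnt cluster.

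Cxcl1 was second. Among high-Wnt tumours p75-94 was at -0.95, p75-80 at -1.30, p110-374 at -1.58, p75-47 at -2.31 and p110-225 at -2.92. It ranged from -5.46 to -2.01 in low-Wnt tumours, with a median of -3.94. Its groups overlapped through p75-534 at -2.01 and p110-143 at -2.32. The difference was 1.94 (SE 0.56, 95% interval 0.74 to 3.13, limma adjusted p = 0.162, exact permutation p = 0.0152), which did not pass. Cxcl1 was measured in 2 of 5 high-Wnt and 3 of 7 low-Wnt tumours. In the tumour colour alone its log2 signal was 9.94 in p75-94 and 9.36 in p75-80. It was 6.70 in p110-374, 6.92 in p75-47 and 7.18 in p110-225, no higher than across low-Wnt tumours (6.76 to 8.90). Over 18 other settings the difference was 0.43 to 2.43 and passed in none.

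Cd8a was lower in high-Wnt tumours by an unadjusted p, at 0.39 ± 0.96 (SD, n = 5) against 2.07 ± 1.39 (SD, n = 7), a difference of -1.68 (SE 0.67, 95% interval -3.11 to -0.24, limma adjusted p = 0.322, exact permutation p = 0.0455), which did not pass. Cd8a was measured in 1 of 5 high-Wnt tumours (p110-225, at 2.11) and in 5 of 7 low-Wnt tumours, so most high-Wnt values are limits and the size of the difference is uncertain. The mean of the adipocyte markers had a median of 1.77 in high-Wnt and 4.54 in low-Wnt tumours, and p110-225, at 5.93, was the highest of the high-Wnt tumours. Their part in the difference of Cd8a was not tested. Cxcl2, a chemokine related to Cxcl1, was on no array of the high-Wnt tumours well above background, so no fold is given (limma adjusted p = 0.448). In high-Wnt and in low-Wnt tumours, respectively, Ptprc was at -2.51 ± 0.83 (SD, n = 5) and -2.03 ± 1.0 (SD, n = 7), Cd74 at 2.03 ± 0.83 (SD, n = 5) and 1.05 ± 0.81 (SD, n = 7), and H2-Aa at 1.14 ± 0.70 (SD, n = 5) and 1.57 ± 0.97 (SD, n = 7).

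Of 37 other inflammatory genes, 11 had an unadjusted p under 0.05, against 12% of all genes, and 1 passed, against 0.233%. It was Cxcl5, a chemokine of the same family as Cxcl1. It was higher in high-Wnt tumours (-1.72 to -0.23) than in low-Wnt tumours (-3.49 to -2.17; limma adjusted p = 0.0374), but it was measured in 2 of 5 and 1 of 7 of them, so most of these values are limits and no fold is given. In the other 7 immune lists, of 10 to 24 genes each, none passed in this comparison (limma), and 0 to 3 genes per list had an unadjusted p under 0.05. The 8 squamous markers, which none of the immune lists contains, had a median difference of 0.59, with an unadjusted p under 0.05 for 5, and basal and myoepithelial markers had a median of 1.71, with 3 of 8. Luminal markers had a median of -0.83, with 2 of 8, adipocyte markers -1.10, with 0 of 6, fibroblast markers 0.70, with 1 of 10, and endothelial markers -0.08, with 1 of 8. These stand beside the same 12% and a median of 0.02 over all genes. Their part in the values of Irg1 and Cxcl1 was not tested.

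Promoter stretches of Irg1, Cxcl1 and Cxcl2 are shown because they share the letters GGAATTTCC, a form of the NF-kB site, which were found in 93 of 27025 promoters (0.344%) and in these 3 of the 27 genes in the table. The letters were picked after the sequences were seen, so the 3 of 27 are a description and no test. The broader form GGNNTTNCC was found in 15.3% of promoters and 12 of the 27. Capitals mark the match, which in Irg1 is on the opposite strand, and it lies 85, 70 and 96 bases before the start site.
Irg1 (chr14:103046912-103046950, plus strand): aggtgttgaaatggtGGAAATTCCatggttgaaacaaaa
Cxcl1 (chr5:90891160-90891198, plus strand): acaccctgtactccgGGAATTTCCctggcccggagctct
Cxcl2 (chr5:90903788-90903826, plus strand): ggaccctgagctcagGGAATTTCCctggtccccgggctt
Irg1 is listed there as Acod1. Of the 3 genes, 1 passed between high-Wnt and low-Wnt tumours, 1 did not pass and 1 was measured in no tumour, so the shared letters stand beside unequal data.

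**Figure D5:**
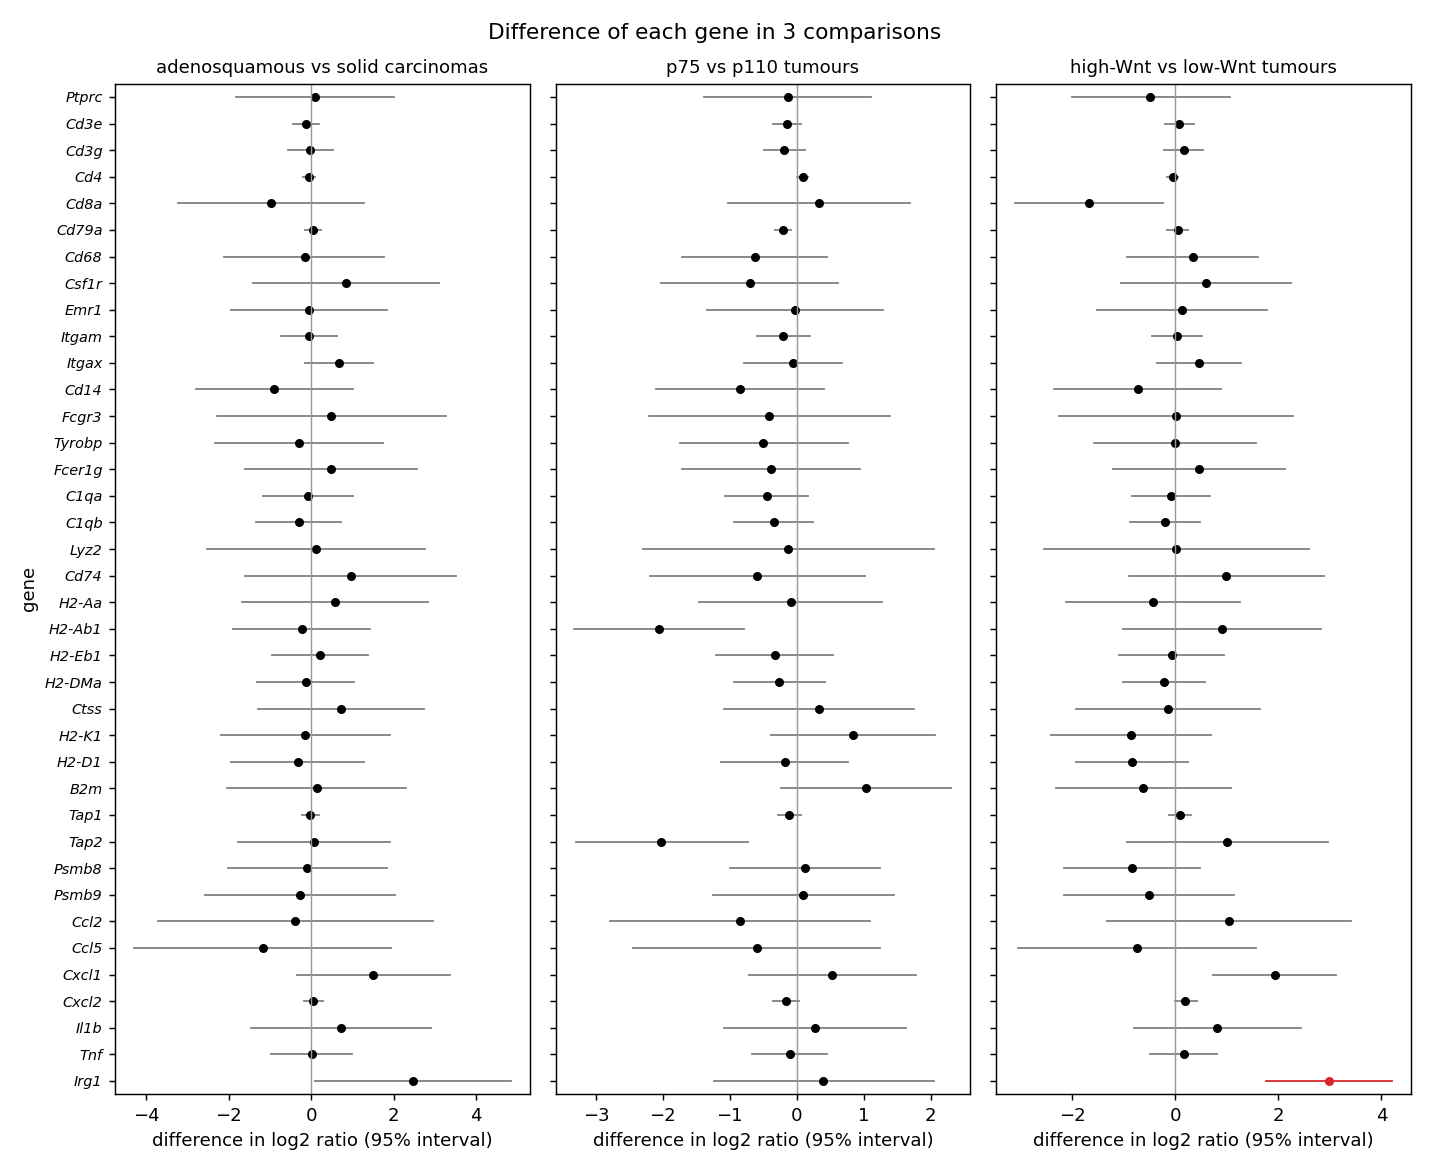
Difference in log2 ratio of each of 38 of the 39 genes (rows) in the 3 comparisons (panels; the first-named group minus the second), with its 95% interval from limma. Red marks an adjusted p under 0.05 over all genes, which only Irg1 between high-Wnt and low-Wnt tumours reached, at 2.98.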

How the data were processed

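Amplified RNA of microdissected cells of 17 tumours was hybridized by the authors with an amplified reference RNA on 38 two-colour Agilent arrays (2 per tumour, 4 for p110-143 and p110-360). The deposited scanner files, made with Feature Extraction 9.5.3.1 per the file headers, hold intensity values of 45018 spots per array that are not normalized. The authors' processed table holds log2 ratios of tumour over reference. It was rebuilt from the scanner files by normexp background correction, loess and averaging of the dye swaps to within 4.98e-08, and over the 39 genes it differed from the values used here by at most 0.19.

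Values were computed with R 4.3.3 and limma 3.58.1. The background correction was normexp (offset 50) on mean signals and local background medians, followed by loess within each array, with control and outlier spots (0.545%) left out and saturated spots kept. Ratios were turned to tumour over reference by the dye of each array and averaged over spots, probes and the arrays of a tumour, which made 1 replicate. Probes were named by the files' gene name or by accession. Of 41174 probes 22951 (55.7%) have an accession in the RefSeq table. Measured means that the scanner's flag for well above background was set on every array of a tumour. The 3 comparisons were fitted in limma (lmFit and eBayes) over all 17 tumours, with Benjamini-Hochberg adjustment over 28786 genes and a threshold of 0.05. Single values were compared by exact permutation of tumours, and correlations by 100000 permutations, or exactly within a transgene. The fits were tested on simulated data. The 38 arrays lie on 15 slides scanned on 10 days in 2 years. Their number and signal limit the precision.

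The members and the gene lists were chosen with earlier results of these data known. Values of 1 of the 39 genes, and of 1 gene of the other lists, are not reported here. The genes described with their tests are Ptprc, Cd74, H2-Aa, Irg1, those that pass a comparison and the 4 members with the smallest limma p in each. The 12 differences so named, the counts and the pairs were recomputed under other background corrections, normalizations, probes, dyes, filters, covariates, blocks and subsets, without each tumour, and, chosen after seeing the data, without p110-121. Positions of probes are in mm7 per the file headers, and promoters are RefSeq's in GRCm38.p6. Adipocyte, fibroblast and endothelial markers were also read. In p110-121 their means were 1.15, -0.70 and 1.50, each inside the range of the other tumours (-0.03 to 6.07, -3.75 to 0.58 and 0.49 to 2.24).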

Additional observations from a re-analysis of the deposited data

Results flagged for a closer look

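Of 76 groups tested, 38 of the 39 genes in the 4 adenosquamous and in the 9 solid carcinomas, 19 had 1 tumour farther from the rest than Dixon's 95% limit allows. The nominal share of that limit is 1 in 20 groups. The 19 are 25%, against 10.1% of 57373 groups over all genes of the arrays by the same limit, so the nominal share does not hold in these data. Genes that vary together are not independent, and 1 library can be counted in many of them. The library labelled p110-121 was the high one in 14 of the 19, all among solid carcinomas (36.8% of the 38 genes, against 2.42% of all genes). Its values there, with the nearest solid carcinoma, were 6.74 for Fcgr3 (2.57), 6.54 for Cd74 (2.69), 5.61 for H2-Aa (2.69), 5.32 for Csf1r (1.02), 5.19 for Tyrobp (1.91), 4.02 for Fcer1g (0.35) and 3.15 for Emr1 (0.46). They were 2.86 for H2-DMa (0.85), 2.77 for C1qb (0.90), 2.71 for C1qa (0.51), 2.23 for Ccl2 (-3.27), 2.02 for Tnf (0.02), 1.98 for Cd68 (-1.09) and 1.58 for Itgam (0.36). Every one of these 14 genes was measured in p110-121. Luminal epithelial markers were low in the same library, and their part was not tested.

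In adenosquamous carcinomas 4 values stood apart. Cd8a was at 3.64 in p75-101 with the nearest at 0.03. Psmb9 was at -2.29 in p75-94 with the nearest at 1.27. Itgax was at 2.28 in p75-101 (2.51) and Ctss at 1.13 in p75-47 (1.83), small gaps in groups with a narrow spread. Among solid carcinomas Tap1 was at 0.43 in p110-225 (0.19), where it was not measured above background.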

How the results depend on the processing

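None of the 12 named differences turned sign under a setting that gave it a value, but their sizes moved. Cd8a between high-Wnt and low-Wnt tumours was at -3.46 to -0.69. Between p75 and p110 tumours H2-Ab1 was at -4.67 to -0.56 and Tap2 at -7.38 to -0.66. Itgax between adenosquamous and solid carcinomas was at 0.17 to 0.77. Cd4 between p75 and p110 tumours was at 0.00 in Cy3 alone, and Cd79a and Cxcl2 have no value under the filter on dim probes. No member passed between adenosquamous and solid carcinomas under any setting, and the number of genes was 0 throughout except 1 with the signals processed by Feature Extraction and 0 to 9 with 1 tumour left out (9 without p75-101). Between p75 and p110 tumours members passed in the tumour colour alone, where 3 did (Cd4 0.35, adjusted p = 0.00252; H2-Ab1 -4.67, adjusted p = 0.00211; Tap2 -7.38, adjusted p = 7.88e-06), and without p110-314, where 2 did (H2-Ab1 -2.42, adjusted p = 0.026; Tap2 -2.43, adjusted p = 0.021), so that leaving out 1 tumour gave 0 to 2. Genes passing there, 145 with 59 higher, were 218 (62 higher) with no background correction, 304 (158) with the processed signals, 1205 (1124) with median centering, 67 (36) with arrays scaled, 315 in Cy5 and 71 in Cy3 alone, 1618 (835) in the tumour colour alone, 86 without p110-98, p110-225 and p110-374, 80 with slide as a random block, 0 in solid carcinomas alone, 4 with histology as a covariate, and 46 (without p75-534) to 1084 (without p110-314) with 1 tumour left out.

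Between high-Wnt and low-Wnt tumours the count of members fell from 1 to 0 with no background correction, the processed signals, median centering, arrays scaled, the authors' values, the mean of all probes, either dye alone, the tumour colour alone, without p110-98, p110-225 and p110-374, trend and robust estimation, and p75 or p110 tumours alone. It was 0 to 1 with 1 tumour left out. Genes passing, 67 with 47 higher, were 0 with no background correction, median centering or arrays scaled, 5 (5 higher) with the processed signals, 7 in Cy5 and 9 in Cy3 alone, 7 in the tumour colour alone, 40 without those 3 tumours, 16 with trend and robust estimation, 125 with the transgene as a covariate, 10 in p75 and 374 in p110 tumours alone, 143 with these clusters alone in the fit, and 115 without p110-121. With 1 tumour left out they were 7 (without p110-360) to 141 (without p75-216).

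Correlations that turned sign were H2-Aa with H2-Ab1 (0.01 with no background correction and in Cy5 alone, 0.08 with median centering, 0.37 with arrays scaled, 0.86 with the mean of all probes, 0.15 in the tumour colour alone), Tap1 with Psmb9 (-0.04 with median centering), Cxcl1 with Cxcl2 (-0.22 with median centering, -0.31 in the tumour colour alone) and Il1b with Irg1 (-0.21 with arrays scaled). Cxcl2, Tap1 and C1qa were measured in 0, 1 and 3 tumours, so signs and sizes of their correlations carry little. Without p110-121, chosen after seeing the data, H2-Aa with Cd74 no longer passed (0.25), and r of C1qa with C1qb was 0.50. The causes were not tested. No paired analysis was possible because each tumour came from its own mouse and no number is shared between groups. Few arrays, and genes near background in weakly labelled tumours, limit all of these values.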
